A study of Mus musculus with 12 samples.

Results

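The genes of the cytosolic ribosomal proteins were described across 12 RNA-seq libraries of RAW264.7 cells, a mouse macrophage line. They were taken from the deposited table by symbol: Rpl, Rps or Rplp followed by a number, with an optional a or x, together with Rpsa. This gave 76 of 18190 genes in the table, of which 30 belong to the small subunit, 43 to the large subunit and 3 to the stalk of the large subunit. All 76 reached 1 FPKM (fragments per length of transcript and per sequencing depth) in at least 3 libraries, the minimum that 11052 genes passed, so none was lost to the filter on low values. The series title places the kinase DCLK1 upstream of NF-κB through IKKβ. The libraries form 4 groups of 3: cells with a stable shRNA against DCLK1 after 500 ng/ml of LPS (lipopolysaccharide) for 6 h, control cells after the same LPS exposure, untreated shDCLK1 cells and untreated control cells. The controls carry a negative control shRNA per the labels' protocols, although their knockdown entry reads "none". Each line is monoclonal, so a difference between shDCLK1 and control cells is also a difference between clones, and the effect of the shRNA and of the clone cannot be told apart. Nothing in the labels states that libraries of a group came from separate cultures, so p-values measure the spread between these libraries, which may be technical.

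Every ribosome carries one copy of almost every ribosomal protein, and the proteins of the small subunit, which reads the mRNA, and of the large subunit, which joins the amino acids, are made in step. Their mRNAs are among the most abundant in growing cells. Most begin with an oligopyrimidine stretch, the 5′ TOP element, through which mTORC1 and the RNA-binding protein LARP1 control their translation and stability. In macrophages LPS signals through the receptor TLR4 to NF-κB and MAP kinases and switches on a large set of cytokine and chemokine genes.

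Sums of FPKM per library ran between 457695 and 495373, and within a group the libraries correlated at 0.993 to 0.996. Read totals were not used here; steps between the low values put the libraries' relative depths between 0.99 and 1.01, from 32 genes. Of 11 macrophage markers, 10 reached 1 FPKM, all but Mrc1, at 0.23 FPKM or less in every library. No epithelial, fibroblast or lymphocyte marker did. Of 4 endothelial markers 1 did: Pecam1, which macrophages also express, at up to 3.67 FPKM. The macrophage markers summed to 4475 to 4700.4 FPKM in LPS-treated shDCLK1 cells, 3817 to 3861 in LPS-treated control cells, 1801 to 1848 in untreated shDCLK1 cells and 1138 to 1146 in untreated control cells. The endothelial ones summed to 3.13 to 3.94, 2.18 to 2.55, 0.53 to 0.68 and 0.88 to 1.22 FPKM in the same order. The macrophage sums follow some markers more than others. Over the libraries Cd14 ran from 146 to 2752 FPKM, Lyz2 from 94.5 to 1013 and Csf1r from 15.5 to 270. Cd68 ran from 223 to 379 FPKM, Spi1 from 187 to 296 and Ptprc from 50.6 to 84.8. The part of the marker differences in the results was not tested. The knockdown could not be checked, because Dclk1 itself was listed at 0.01 FPKM or less in every library.

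The family spanned a wide range of levels, with Rplp1 highest and Rpl26 lowest in all groups. Ranks between them shifted in part: Rps27 was at rank 22 in both untreated groups and at rank 7 in both LPS-treated groups. FPKM is a level per length, so genes can be set beside each other on it, though only roughly. The members' principal GENCODE transcripts had a median length of 756 bases, against 2851 for genes tested that had a value. The part of length in the levels was not tested. Mean levels over the 12 libraries went from 6.23 FPKM for Rpl26 to 3244 FPKM for Rplp1, with a median of 1039 FPKM. Of the 76 genes, 42 averaged above 1000 FPKM, 73 exceeded 100 FPKM in every library, and 56 were among the 100 genes of the highest mean in the whole table.

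Rplp1, an acidic protein of the stalk that recruits elongation factors, was first, at 3376, 3470 and 3354 FPKM in LPS-treated shDCLK1 cells, 3309, 3437 and 3487 FPKM in LPS-treated control cells, 3021, 2737 and 2859 FPKM in untreated shDCLK1 cells and 3253, 3154 and 3475 FPKM in untreated control cells. Untreated shDCLK1 cells were the lowest group, and the other 3 groups overlapped. Rps2, a small-subunit protein at the mRNA entrance, was second, and Rplp0, which anchors the acidic stalk proteins, came next at 1924 ± 31.5, 2052 ± 9.18, 1863 ± 52.9 and 2115 ± 75.5 FPKM in the same order of groups (SD, n = 3 each). At the other end Rps15a averaged 49.0 ± 0.919, 50.7 ± 1.47, 47.5 ± 1.21 and 49.9 ± 2.74 FPKM and Rpl30 averaged 42.7 ± 3.38, 47.2 ± 3.70, 42.2 ± 3.58 and 51.1 ± 8.94 FPKM (SD, n = 3 each). Rpl26 averaged 6.21 ± 0.911, 6.50 ± 0.844, 5.60 ± 0.533 and 6.61 ± 0.855 FPKM (SD, n = 3 each), and its groups overlapped. Ribosomal protein genes have many near-identical processed copies in the mouse genome. The table held 7 rows that are ribosomal protein pseudogenes by symbol. How reads were divided between a gene and its copies is not given in the sources used here. The levels of the members are therefore uncertain, those of Rpl26, Rpl30 and Rps15a in particular. Within groups the median coefficient of variation over the family was 3.24% in LPS-treated shDCLK1 cells, 2.34% in LPS-treated control cells, 4.25% in untreated shDCLK1 cells and 3.56% in untreated control cells.

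Promoter sequence was available for 56 of the 76 genes in the RefSeq table (build GRCm38.p6), as 250 bases before to 50 bases after each annotated start. A run of at least 5 pyrimidines that begins with C within 5 bases of an annotated start, the letter pattern of a TOP element, was found in 27 of the 56 (48.2%), against 23.8% of 8733 tested genes with a promoter in the table and 21.2% of all 27025 genes in it. The ETS motif CCGGAAG, on either strand, was in 41.1% of the 56, 22.3% of the tested genes and 9.93% of all genes. The YY1 motif AAGATGGC was in 8.93% of the 56 and 5.87% of the tested genes, the TATA box TATAAA in 10.7% and 8.46%, and the E-box CACGTG in 10.7% and 12.3%. The windows of 5 genes that the results turn on are shown because they differ in this run: 20 bases before to 20 after the annotated start, with the run in capitals. Rps27 (chr3:90213629-90213668, minus strand) and Rpl9 (chr5:65391412-65391451, minus strand) stood above the family after LPS, Rps2 (chr17:24720043-24720082, plus strand) and Rpl41 (chr10:128549149-128549188, minus strand) stood below it, and Rpl15 (chr14:18270967-18271006, minus strand) stood out between the lines.
Rps27: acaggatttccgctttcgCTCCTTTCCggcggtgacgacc
Rpl9: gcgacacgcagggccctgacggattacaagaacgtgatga
Rps2: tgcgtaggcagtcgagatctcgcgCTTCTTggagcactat
Rpl41: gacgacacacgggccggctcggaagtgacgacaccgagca
Rpl15: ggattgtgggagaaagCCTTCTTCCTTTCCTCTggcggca
The run was 9 bases long in Rps27, 6 in Rps2 and 17 in Rpl15, and the windows of Rpl9 and Rpl41 held none by this rule. Pyrimidine runs further from the annotated start were not counted, and the accuracy of the annotated starts was not tested. A gene without a match may therefore still have a TOP element.

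Taken as a whole, the family made up a smaller share of the FPKM sum in shDCLK1 cells than in control cells. The share was 15.7%, 16.3% and 15.9% in LPS-treated shDCLK1 cells, 16.4%, 16.3% and 16.4% in LPS-treated control cells, 16.7%, 15.9% and 16.2% in untreated shDCLK1 cells and 17.7%, 17.6% and 18.2% in untreated control cells. Untreated control cells stood above all other libraries, and each LPS-treated group overlapped the untreated shDCLK1 cells. A share also depends on the other genes: the 10 most abundant genes outside the family, Ccl3 and Ccl5 among them, took 8.39% of the sum in LPS-treated shDCLK1 cells, 10.1% in LPS-treated control cells, 5.33% in untreated shDCLK1 cells and 5.54% in untreated control cells. Without those genes the share was 17.4% ± 0.361, 18.2% ± 0.0348, 17.2% ± 0.408 and 18.9% ± 0.370 in the same order (SD, n = 3 each).

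Median-of-ratios scaling divides each library by a factor set so that the typical gene is level between libraries. The factors averaged 0.906 in LPS-treated shDCLK1 cells, 0.849 in LPS-treated control cells, 1.14 in untreated shDCLK1 cells and 1.14 in untreated control cells. After this scaling the summed FPKM of the family was 86009 ± 2610 in LPS-treated shDCLK1 cells, 95136 ± 686 in LPS-treated control cells, 66137 ± 2736 in untreated shDCLK1 cells and 73273 ± 2286 in untreated control cells (SD, n = 3 each). On this scale all LPS-treated libraries lay above all untreated ones, and within each treatment all shDCLK1 libraries lay below all control libraries. In bulk RNA, fewer cells of a type and less RNA per cell cannot be told apart. Small-subunit genes took 41.5% to 42.3% of the family's FPKM in every library, so the split between the subunits hardly moved.

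**Figure D1:**
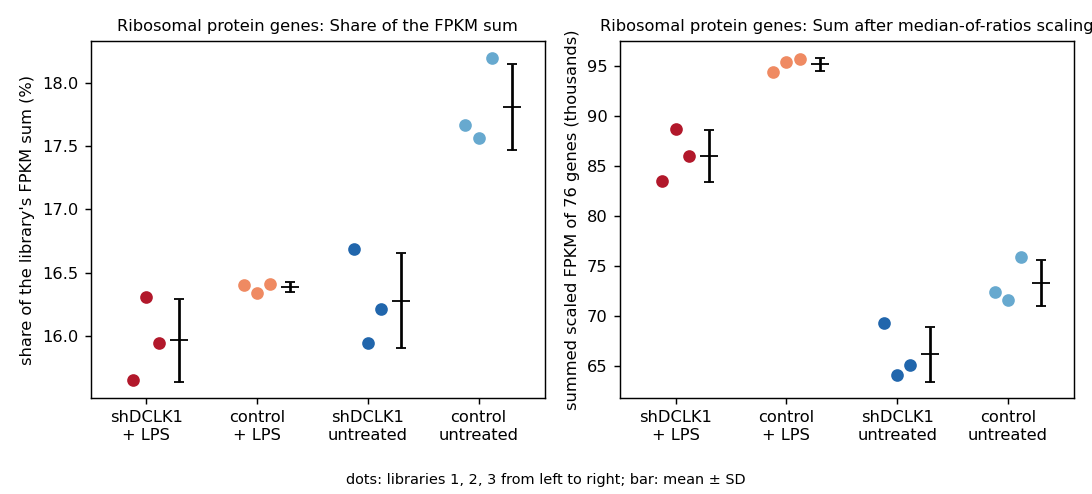
The left panel plots the share of each library's FPKM sum held by the 76 ribosomal protein genes (percent) and the right panel their summed FPKM after median-of-ratios scaling (in units of 1000), with a dot per library, a bar at the mean and whiskers of 1 SD for each of the 4 groups. The untreated control cells are highest by share, at 17.8% on average, whereas both LPS-treated groups are highest after scaling; neither axis starts at 0.

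LPS moved the family against most other genes, and how it moved in absolute terms depended on the scale. As deposited, the median log2 change of the 76 genes was 0.05 in shDCLK1 cells and -0.05 in control cells, while the median over all 11052 genes was -0.29 and -0.38. In shDCLK1 cells 26 of the 76 rose and 13 fell at an adjusted p under 0.05 in limma (log2 of FPKM plus 1, Benjamini-Hochberg over all genes tested), beside 24.9% and 59.7% of all genes. In control cells 15 rose and 27 fell, beside 24.8% and 62.1% of all genes. After scaling, which brought the median of all genes in control cells to -0.01, 75 of the 76 rose in shDCLK1 cells and none fell, beside 41.2% and 41.3% of all genes. In control cells 72 rose and none fell after scaling, beside 42.6% and 42.8% of all genes, and at an unadjusted p under 0.05 in limma the number that fell was also 0 in both lines. After scaling the family's median log2 change was 0.38 in shDCLK1 cells and 0.36 in control cells. Quantile normalization turned the counts round, to 7 higher and 57 lower in shDCLK1 cells and 6 higher and 48 lower in control cells. With equal sums 21 rose and 22 fell in shDCLK1 cells and 9 rose and 39 fell in control cells. Shares of all genes were not computed under quantile normalization or equal sums, so these counts cannot be set against all genes. The genes that missed the threshold after median-of-ratios scaling were Rps2 in shDCLK1 cells and Rps2, Rpl10a, Rpl22 and Rpl41 in control cells.

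**Figure D2:**
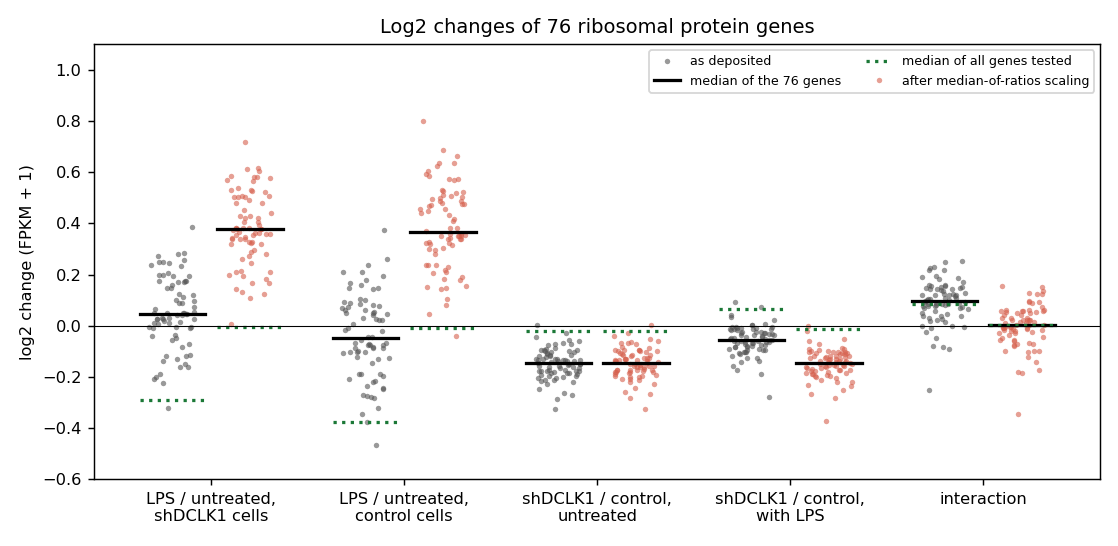
The plot gives the log2 change (FPKM plus 1) of each of the 76 ribosomal protein genes in the 5 comparisons, as deposited (grey) and after median-of-ratios scaling (red), with a black bar at their median and a green dotted bar at the median of all genes tested. After scaling the LPS changes centre on 0.38 in shDCLK1 cells and 0.36 in control cells, and the medians of the 2 line comparisons lie below 0 on both scales.

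To see which members moved against the rest of the family, each gene was also tested relative to the mean of the 76 genes in the same library, a measure that the scaling of a library alters only through the pseudocount, most for genes of low level. In control cells median-of-ratios scaling moved it by -0.0548 for Rpl26 and by no more than 0.007 in size for the other 75 genes. By construction the members centre on 0 on this measure, so their numbers above and below tend to balance. Other genes carry the family's own shift with its sign reversed, so their shares are not a like base for the members. In shDCLK1 cells 22 of the 76 stood above the family after LPS and 18 below it in limma, beside 21.9% and 61.8% of all genes. In control cells 27 stood above and 24 below, beside 25.7% and 59.0% of all genes. The 2 lines share no library, and the relative changes in them correlated across the 76 genes at Pearson's r = 0.86 and Spearman's rho = 0.83; genes within a library are not independent replicates. Of the genes above the family, 20 were shared, which is 90.9% of those in shDCLK1 cells and 74.1% of those in control cells. Of the genes below, 16 were shared (88.9% and 66.7%), and 0 were called in opposite directions. Neither the overlap nor the correlation was computed over all genes. It was therefore not tested whether the sharing is particular to the family.

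**Figure D3:**
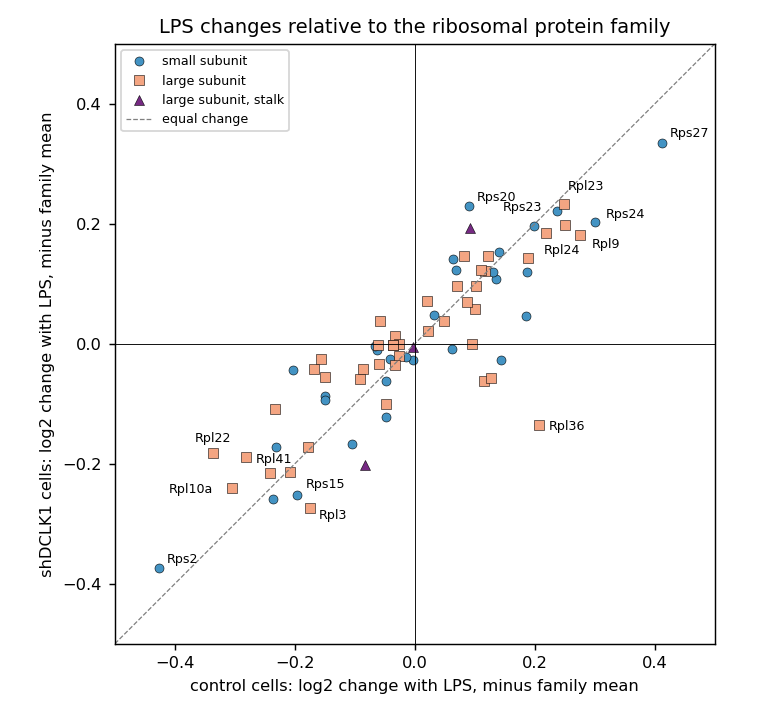
Each point is 1 of the 76 ribosomal protein genes, placed by its log2 change with LPS minus the family mean in control cells (horizontal axis) and in shDCLK1 cells (vertical axis), with symbols for the subunit. The points lie along the line of equal change (r = 0.86), from Rps2 at the lower left to Rps27 at the upper right, with Rpl36 off the line.

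Among small-subunit genes, Rps27, which codes for a zinc-binding protein, stood furthest above the family in both lines. It had 1652, 1730 and 1702 FPKM in LPS-treated shDCLK1 cells against 1315, 1319 and 1251 FPKM in untreated shDCLK1 cells, and 1700, 1839 and 1842 FPKM in LPS-treated control cells against 1402, 1292 and 1466 FPKM in untreated control cells. The LPS-treated libraries were all higher than the untreated ones. Relative to the family its log2 change was 0.34 ± 0.04 in shDCLK1 cells (adjusted p = 1.39e-06 in limma) and 0.41 ± 0.04 in control cells (adjusted p = 1.27e-07; ± is the SE of the fit here and below). Rps24, which in humans is among the genes mutated in Diamond-Blackfan anaemia, had 822, 896 and 833 FPKM in LPS-treated shDCLK1 cells against 724, 708 and 703 FPKM in untreated shDCLK1 cells, and 861, 909 and 907 FPKM in LPS-treated control cells against 739, 711 and 786 FPKM in untreated control cells. Here too the LPS-treated libraries did not overlap the untreated ones, and the relative log2 change was 0.20 ± 0.03 in shDCLK1 cells and 0.30 ± 0.03 in control cells (adjusted p = 2.04e-05 and 2.98e-07 in limma). Rps23, part of the decoding centre, stood 0.22 ± 0.04 above the family in shDCLK1 cells and 0.24 ± 0.04 in control cells, and Rps27a, made as a fusion with ubiquitin, 0.20 ± 0.03 in each line. Rps6, the ribosomal target of S6 kinase, stood above the family by 0.19 ± 0.02 in control cells (adjusted p = 5.93e-06 in limma) and by 0.05 ± 0.02 in shDCLK1 cells (adjusted p = 0.0926).

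Rps2 stood furthest below the family in both lines. It had 1753, 1894 and 1853 FPKM in LPS-treated shDCLK1 cells against 2430, 2193 and 2256 FPKM in untreated shDCLK1 cells, and 1896, 1839 and 1777 FPKM in LPS-treated control cells against 2444, 2486 and 2690 FPKM in untreated control cells. All LPS-treated libraries were lower than all untreated ones. The relative log2 change was -0.37 ± 0.03 in shDCLK1 cells and -0.43 ± 0.03 in control cells (adjusted p = 3.11e-08 and 6.03e-09 in limma). Its own change depended on the scale: as deposited it fell by 0.32 in shDCLK1 cells and by 0.47 in control cells, whereas after scaling the values were 0.0086 and -0.04 and neither passed the test. Rps15, of the decoding centre, was also below the family in both lines, with relative log2 changes of -0.25 in shDCLK1 cells and -0.20 in control cells. So was Rpsa, known also as the laminin receptor precursor (-0.17 in shDCLK1 cells and -0.23 in control cells). Rps3, which besides its place at the mRNA entrance is known to bind the NF-κB subunit p65, had 621 ± 22.6 FPKM in LPS-treated shDCLK1 cells and 609 ± 9.16 FPKM in untreated shDCLK1 cells, and 649 ± 23.0 and 688 ± 25.5 FPKM in LPS-treated and untreated control cells (SD, n = 3 each).

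In the large subunit, Rpl9 had 1039, 1097 and 1047 FPKM in LPS-treated shDCLK1 cells against 919, 896 and 892 FPKM in untreated shDCLK1 cells, and 1184, 1181 and 1135 FPKM in LPS-treated control cells against 987, 948 and 1039 FPKM in untreated control cells. In each line its LPS-treated libraries were above the untreated ones. Its relative log2 change was 0.18 ± 0.03 in shDCLK1 cells and 0.28 ± 0.03 in control cells (adjusted p = 3.51e-05 and 3.87e-07 in limma). Rpl24, which forms a bridge to the small subunit, and Rpl23, which is known to bind MDM2, stood above the family by 0.20 ± 0.03 and 0.23 ± 0.04 in shDCLK1 cells and by 0.25 ± 0.03 and 0.25 ± 0.04 in control cells.

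Rpl22, an RNA-binding protein that mouse T cell development requires, had 140, 138 and 140 FPKM in LPS-treated shDCLK1 cells against 157, 152 and 148 FPKM in untreated shDCLK1 cells, and 131, 130 and 136 FPKM in LPS-treated control cells against 172, 162 and 184 FPKM in untreated control cells. In each line its LPS-treated libraries were all below the untreated ones, and its relative log2 change was -0.18 ± 0.04 in shDCLK1 cells and -0.34 ± 0.04 in control cells (adjusted p = 0.000542 and 1.24e-06 in limma). Rpl10a, of the L1 stalk, stood below the family by -0.24 ± 0.03 in shDCLK1 cells and -0.31 ± 0.03 in control cells, and Rpl41, a very short peptide between the subunits, by -0.19 ± 0.04 and -0.28 ± 0.04. Rpl3, which reaches towards the peptidyl transferase centre, stood below by -0.27 ± 0.02 and -0.17 ± 0.02. Rpl11, which forms the 5S particle with Rpl5 and binds MDM2, stood below the family in both lines (-0.17 and -0.18), whereas Rpl5 was above it in control cells by 0.10 ± 0.04 (adjusted p = 0.0254 in limma) and had -0.0001 in shDCLK1 cells (adjusted p = 0.998). That call on Rpl5 was lost without replicate 2 or 3 of the untreated control cells or replicate 1 or 2 of the LPS-treated ones, where the change was 0.08 to 0.09. Rpl13a, known in human monocytes as part of the GAIT complex that represses inflammatory mRNAs, stood below the family in control cells by -0.17 ± 0.03 (adjusted p = 5.1e-05 in limma) and had -0.04 ± 0.03 in shDCLK1 cells (adjusted p = 0.166). Of the stalk genes, Rplp1 stood above (0.19 and 0.09) and Rplp2 below (-0.20 and -0.08) in shDCLK1 and control cells. Without a filter on low values the control-cell calls on Rpl5, Rplp1 and Rplp2 were lost (adjusted p = 0.056, 0.0569 and 0.0948 in limma).

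**Figure D4:**
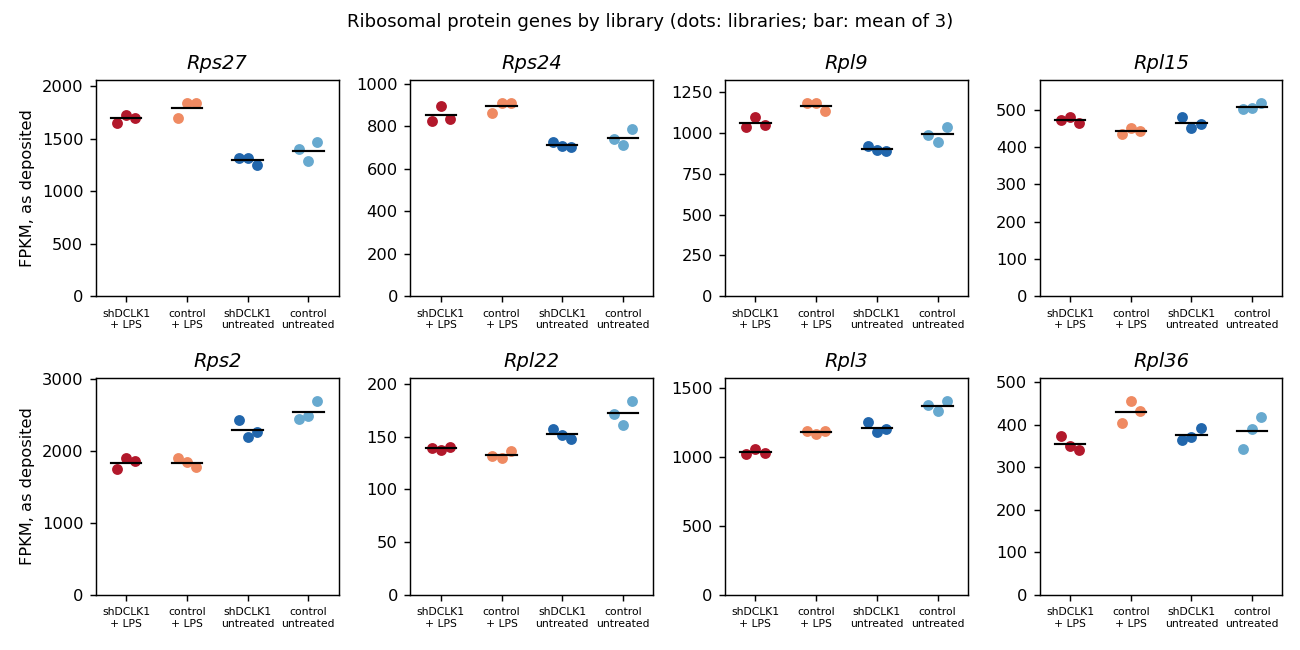
FPKM as deposited of 8 ribosomal protein genes in the 4 groups, with a dot per library and a bar at the mean of 3; each vertical axis starts at 0. Rps27, Rps24 and Rpl9 are higher with LPS and Rps2 and Rpl22 lower in both lines, and Rpl36 is highest in LPS-treated control cells at 431 FPKM on average.

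Base composition and promoter letters of the genes above and below the family after LPS are given here as descriptions. Across the 76 genes the relative change correlated with the GC content of the principal GENCODE transcript at r = -0.41 in shDCLK1 cells and r = -0.36 in control cells (rho = -0.41 and -0.38), and with transcript length at r = 0.07 and r = -0.02. The median GC content in shDCLK1 cells was 49.1% for the genes above and 53.1% for those below, and in control cells 49.4% and 53.4%; all 76 had a value, and the part of GC content in the result was not tested. A pyrimidine run was present in 9 of the 17 genes above the family that had a promoter in the table and in 6 of the 14 below it in shDCLK1 cells. In control cells it was present in 11 of 20 above and 9 of 18 below. Among genes not called it was present in 12 of 25 in shDCLK1 cells and 7 of 18 in control cells, beside 48.2% of all 56. The ETS motif was in 7 of the 17 above and 5 of the 14 below in shDCLK1 cells, and in 9 of the 20 above and 7 of the 18 below in control cells. Among genes not called the ETS motif was in 11 of 25 in shDCLK1 cells and 7 of 18 in control cells, beside 41.1% of all 56. The matches are descriptions of letters and not sites shown to act.

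Without LPS, many ribosomal protein mRNAs had lower levels in shDCLK1 cells than in control cells, and none was called higher on any scale tried. In limma 52 of the 76 genes were lower and 0 were higher, beside 23.6% and 21.4% of all genes, and the count higher was also 0 at an unadjusted p under 0.05. After scaling 49 were lower and 0 higher, beside 22.8% and 21.2% of all genes. After quantile normalization 20 were lower and 0 higher, with no share of all genes computed beside them. The median log2 change of the family was -0.15 as deposited and -0.14 after scaling, and that of all genes was -0.02 on both. The shift was shared widely: 75 of the 76 changes were below 0, and the medians were -0.15 for the small subunit, -0.14 for the large subunit and -0.18 for the stalk. Fewer members than that moved against the family: 6 stood above its mean and 4 below, beside 40.8% and 5.54% of all genes. The members centre on 0 on this measure by construction, whereas the median of all genes was 0.13. The total of 10 members was 6 without replicate 1 or 2 of the control cells or replicate 3 of the shDCLK1 cells.

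Rps20, of the head of the small subunit, had 154, 130 and 142 FPKM in shDCLK1 cells against 172, 183 and 179 FPKM in control cells, and the groups did not overlap. Its log2 change was -0.33 ± 0.06 as deposited (adjusted p = 0.000901 in limma) and -0.18 ± 0.05 relative to the family (adjusted p = 0.00584). Rpsa had 1077, 1010 and 1033 FPKM in shDCLK1 cells against 1258, 1217 and 1286 FPKM in control cells. Again the groups were apart, with a log2 change of -0.27 ± 0.04 (adjusted p = 6.43e-05 in limma) and -0.12 ± 0.02 relative to the family (adjusted p = 0.000932). Rps21 had 847 ± 38.3 FPKM in shDCLK1 cells and 1032 ± 51.2 FPKM in control cells (SD, n = 3 each). Its change relative to the family, -0.14 ± 0.03 (adjusted p = 0.00285 in limma), lay between those of Rps20 and Rpsa. Rplp0, Rplp1, Rpl11, Rpl5, Rpl13a, Rps3 and Rps4x, an X-linked member, were also lower in shDCLK1 cells, by log2 changes between -0.15 and -0.21. Rpl30 had 43.7, 44.8 and 38.1 FPKM in shDCLK1 cells against 48.5, 61.1 and 43.8 FPKM in control cells, and these groups overlapped (relative change -0.11 ± 0.11, adjusted p = 0.414 in limma).

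At the other end Rpl31 had 377, 357 and 371 FPKM in shDCLK1 cells against 354, 352 and 400 FPKM in control cells. The groups overlapped, and with the rest of the family lower this put it 0.15 ± 0.04 above the family mean (adjusted p = 0.0055 in limma). Rps6 stood 0.09 ± 0.02 above it (adjusted p = 0.00679) and Rpl10, which joins the large subunit late in its assembly, 0.10 ± 0.04 (adjusted p = 0.0267 in limma). The call on Rpl10 was lost without replicate 2 of the control cells (0.06) or without any 1 of the shDCLK1 replicates (0.10 to 0.11). Rpl36 had a relative change of 0.12 ± 0.07 (adjusted p = 0.157 in limma).

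With LPS in both lines, how many ribosomal protein mRNAs were lower in shDCLK1 cells depended on the scale. As deposited, 12 of the 76 were called lower and 1, Rpl15, higher, beside 14.3% and 34.3% of all genes. By sign alone 68 were below 0 and 8 above. The median log2 change was -0.05 for the family and 0.07 for all genes. After scaling 53 were lower and 0 higher, beside 26.2% and 23.3% of all genes, with 0 higher also at an unadjusted p under 0.05 in limma, and the medians were -0.15 and -0.01. The 12 lower as deposited became 4 without replicate 1 of the LPS-treated shDCLK1 cells, 6 without their replicate 3, 7 without replicate 2 and 6 without replicate 3 of the LPS-treated control cells. Relative to the family 3 genes stood above and 5 below, beside 40.5% and 8.04% of all genes; this total of 8 was 4 without replicate 1 or 3 of the LPS-treated shDCLK1 cells or replicate 2 of the LPS-treated control cells.

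Rpl36, a small protein of the large subunit, had 373, 349 and 340 FPKM in shDCLK1 cells with LPS against 404, 455 and 433 FPKM in control cells with LPS, and the groups were apart. Its log2 change was -0.28 ± 0.07 (adjusted p = 0.00434 in limma) and -0.22 ± 0.07 relative to the family (adjusted p = 0.012), and the second was -0.19 (adjusted p = 0.0552) without replicate 2 of the LPS-treated control cells. Rpl3 had 1022, 1055 and 1028 FPKM in shDCLK1 cells with LPS against 1188, 1165 and 1187 FPKM in control cells with LPS. These groups did not overlap either, at -0.19 ± 0.03 as deposited (adjusted p = 0.000253 in limma) and -0.13 ± 0.02 relative to the family (adjusted p = 0.00034). Rpl5 stood below the family by -0.10 ± 0.04 (adjusted p = 0.033 in limma), a call lost without any of 4 of the 6 libraries compared, where the change was -0.09 to -0.10, and without a filter on low values (adjusted p = 0.0711). Rps29 had a relative change of -0.12 ± 0.06 (adjusted p = 0.122 in limma).

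Rpl15, which lies deep in the large subunit and whose window above carries the 17-base run, had 472, 481 and 465 FPKM in shDCLK1 cells with LPS against 434, 452 and 443 FPKM in control cells with LPS. The groups did not overlap. It stood 0.15 ± 0.03 above the family (adjusted p = 0.000268 in limma), and its own change was 0.09 ± 0.03 as deposited (adjusted p = 0.0206) but 0.0005 after scaling (adjusted p = 0.993). The call as deposited was also lost without replicate 2 of the LPS-treated shDCLK1 cells or replicate 1 or 3 of the LPS-treated control cells, where it was 0.08 to 0.09. Rpl22 stood above the family by 0.13 ± 0.04 (adjusted p = 0.0142 in limma) and Rpl7 by 0.10 ± 0.03 (adjusted p = 0.00812), while the changes of Rpl22, Rpl7 and Rpl14 themselves were 0.07, 0.04 and 0.03 as deposited and -0.02, -0.05 and -0.06 after scaling, none past the test. The call on Rpl22 was lost without replicate 1 or 3 of the LPS-treated shDCLK1 cells or replicate 2 of the LPS-treated control cells, at 0.11 to 0.12.

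The interaction asks whether LPS changed a gene differently in shDCLK1 and in control cells; a positive value means a higher change with LPS in shDCLK1 cells. As deposited it was called positive for 18 of the 76 genes and negative for 1, Rpl36, beside 32.6% and 16.9% of all genes. The median was 0.10 for the family and 0.09 for all genes. After scaling it was called positive for 1, Rpl15, and negative for 2, Rpl36 and Rps6, beside 22.9% and 23.6% of all genes. These counts, and those of positive and negative interactions below, are of genes at an adjusted p under 0.05 in limma. By sign alone 66 of the 76 were above 0 and 10 below as deposited, and 39 and 37 after scaling. The count of 18 was 9 without replicate 3 of the untreated control cells, 8 and 11 without replicates 2 and 3 and 30 without replicate 1 of the untreated shDCLK1 cells, 10 without replicate 2 of the LPS-treated shDCLK1 cells and 9 without replicate 1 of the LPS-treated control cells.

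Relative to the family 6 genes were positive and 5 negative, beside 18.2% and 20.5% of all genes; the total of 11 was 6 without replicate 3 of either shDCLK1 group and 7 without replicate 1 of the LPS-treated control cells. Rpl36 had the most negative value, -0.34 ± 0.09 (adjusted p = 0.00963 in limma): its LPS change relative to the family was -0.13 in shDCLK1 cells, where 373, 349 and 340 FPKM with LPS overlapped 363, 371 and 392 FPKM without, and 0.21 ± 0.07 in control cells. Rpl31 and Rpl10 followed at -0.18 each (SE 0.05 and 0.05, adjusted p = 0.0156 and 0.0127 in limma). Rps21 had the most positive value, 0.16 ± 0.04 (adjusted p = 0.0113 in limma), with 866, 855 and 832 FPKM in LPS-treated shDCLK1 cells against 886, 809 and 846 FPKM in untreated shDCLK1 cells, and 846, 886 and 880 FPKM in LPS-treated control cells against 1033, 980 and 1083 FPKM in untreated control cells. Its LPS-treated and untreated libraries overlapped in shDCLK1 cells and were apart in control cells. Rps20 and Rps29 had 0.14 ± 0.07 and -0.17 ± 0.08 and missed the threshold (adjusted p = 0.108 and 0.129 in limma).

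Ribosomal proteins, and genes named after them, whose symbols fall outside the rule were looked up as well: 11 of 21 listed were tested. Abundant ones are Rps3a1, Fau, a small-subunit protein made as a fusion with a ubiquitin-like protein, and Rack1, a scaffold on the head of the small subunit. Fau rose with LPS in both lines, with a log2 change of 0.29 ± 0.04 in shDCLK1 cells and 0.18 ± 0.04 in control cells (adjusted p = 4.51e-05 and 0.00194 in limma). Rack1 had -0.0082 and 0.0067 on the same scale and rose after scaling by 0.32 and 0.43. Rps3a1 had 0.07 and -0.04 as deposited and rose after scaling by 0.40 and 0.38. Rps27l, a paralog of Rps27 and a p53 target, fell in both lines as deposited by 0.14 ± 0.05 and 0.43 ± 0.05 (adjusted p = 0.0195 and 2.77e-06 in limma), opposite to Rps27 on that scale, but after scaling it rose by 0.19 in shDCLK1 cells and had -0.0006 in control cells. Rpl7l1, Rpl22l1, Rpl36al and Rsl24d1, whose names resemble those of ribosomal proteins, were tested too. So were the muscle paralog Rpl3l, at 1.58 FPKM or less in every library, and Rps27rt, whose values included 0.

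Genes that build and regulate ribosomes did not all move as the ribosomal protein genes did. With LPS, 41 of 58 ribosome biogenesis factors fell and 5 rose in shDCLK1 cells (median log2 change -0.19), and 54 fell and 2 rose in control cells (median -0.43). Over all genes 59.7% fell and 24.9% rose in shDCLK1 cells and 62.1% fell and 24.8% rose in control cells. After scaling the same list split into 32 higher and 16 lower in shDCLK1 cells and 22 higher and 23 lower in control cells. Over all genes 41.2% rose and 41.3% fell in shDCLK1 cells after scaling, and 42.6% and 42.8% in control cells. The list's medians after scaling were 0.14 and -0.03, beside 0.38 and 0.36 for the ribosomal protein genes. The interaction was positive for 45 of the 58 and negative for 1 as deposited, beside 32.6% and 16.9% of all genes, and for 30 and 2 after scaling, beside 22.9% and 23.6%. Tsr1, a factor in small-subunit maturation, had 32.1 ± 0.448 FPKM in LPS-treated shDCLK1 cells, 24.7 ± 1.15 in LPS-treated control cells, 39.9 ± 0.555 in untreated shDCLK1 cells and 45.7 ± 0.859 in untreated control cells (SD, n = 3 each), with an interaction of 0.56 ± 0.05 (adjusted p = 1.41e-06 in limma). Nop56, of the box C/D snoRNPs, had an interaction of 0.52 ± 0.05 (adjusted p = 4.39e-06). Imp3 and Rrp1b fell with LPS, with log2 changes of -1.41 and -1.01 in shDCLK1 cells and -1.49 and -1.43 in control cells.

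Of 15 genes of RNA polymerase I and its factors, 11 fell with LPS and 1 rose in shDCLK1 cells, and 13 fell and 1 rose in control cells, beside 59.7% and 62.1% of all genes that fell. After scaling 5 rose and 5 fell in shDCLK1 cells, beside 41.2% and 41.3% of all genes. In control cells 4 rose and 6 fell after scaling, beside 42.6% and 42.8% of all genes. Cd3eap, a polymerase I subunit, had 8.52 ± 0.374 FPKM in LPS-treated shDCLK1 cells, 5.76 ± 0.617 in LPS-treated control cells, 19.8 ± 0.657 in untreated shDCLK1 cells and 28.8 ± 1.26 in untreated control cells (SD, n = 3 each), and its interaction was 1.02 ± 0.09 (adjusted p = 1.33e-06 in limma). Polr1b, the second largest subunit, had an interaction of 0.74 ± 0.07 (adjusted p = 1.71e-06), and Ubtf, which binds the rDNA promoter, fell with LPS (-1.38 in shDCLK1 cells and -1.62 in control cells). Of 12 ribosomal protein chaperones and importins, 10 fell and 2 rose in shDCLK1 cells and 11 fell and 1 rose in control cells. Over all genes 59.7% and 62.1% fell. Tnpo1, an import receptor, had log2 changes of -1.41 and -1.63. After scaling 3 of the 12 rose and 7 fell in shDCLK1 cells, beside 41.2% and 41.3% of all genes. In control cells 2 rose and 8 fell after scaling, beside 42.6% and 42.8% of all genes. The list's median after scaling was -0.18 in shDCLK1 cells and -0.31 in control cells.

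Other mRNAs with a TOP element split: of 21 outside the symbol rule, 12 fell with LPS and 4 rose in shDCLK1 cells and 14 fell and 2 rose in control cells. Rack1 is among the 21, and others of them are also counted with the initiation factors, the biogenesis factors or the chaperones. After scaling 12 of the 21 rose and 8 fell in shDCLK1 cells, beside 41.2% and 41.3% of all genes. In control cells 12 rose and 6 fell after scaling, beside 42.6% and 42.8% of all genes. As deposited the share that fell in shDCLK1 cells is close to the 59.7% of all genes, and in control cells 62.1% of all genes fell. Eif4b, a helicase cofactor, fell, with log2 changes of -1.18 ± 0.03 in shDCLK1 cells and -1.52 ± 0.03 in control cells (adjusted p = 1.98e-13 and 1.03e-14 in limma), as did the histone chaperone Nap1l1 (-1.19 ± 0.03 and -1.43 ± 0.03). Vim, coding for vimentin, was higher in untreated shDCLK1 cells (375 ± 7.92 FPKM) than in untreated control cells (258 ± 4.56 FPKM; SD, n = 3 each), a log2 change of 0.54 ± 0.03 (adjusted p = 1.33e-08 in limma). Of 38 initiation factors, 18 fell and 12 rose with LPS in shDCLK1 cells and 21 fell and 12 rose in control cells, beside 59.7% and 62.1% of all genes that fell. After scaling 27 rose and 6 fell in shDCLK1 cells, beside 41.2% and 41.3% of all genes. In control cells 26 rose and 8 fell after scaling, beside 42.6% and 42.8%. Of 19 genes of mTORC1 and LARP1 control, 16 fell and 3 rose in shDCLK1 cells and 14 fell and 3 rose in control cells, beside 59.7% and 62.1% of all genes that fell. After scaling 5 rose and 11 fell in shDCLK1 cells, beside 41.2% and 41.3% of all genes. In control cells 8 rose and 8 fell after scaling, near the 42.6% and 42.8% of all genes. Eif4ebp1, a translation repressor that mTORC1 inactivates, fell with LPS by 1.69 ± 0.05 in shDCLK1 cells (adjusted p = 7.45e-12 in limma), and its paralog Eif4ebp2 by 1.82 ± 0.03 in control cells (adjusted p = 3.58e-15). Both were lower with LPS in both lines as deposited. Eif4ebp1 averaged 51.5 FPKM with LPS and 169 without in shDCLK1 cells, and 60.7 and 139 in control cells. Eif4ebp2 averaged 18.7 and 50.3 FPKM in shDCLK1 cells, and 16.0 and 59.0 in control cells.

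Between untreated lines 33 of 58 biogenesis factors, 7 of 15 polymerase I genes, 7 of 12 chaperones and importins, 14 of 38 initiation factors and 11 of 21 other TOP mRNAs were lower in shDCLK1 cells, and 0, 0, 0, 3 and 1 were higher. Over all genes 23.6% were lower and 21.4% higher. Of the 19 genes of mTORC1 and LARP1 control, 7 were higher and 5 lower. Cd3eap had a log2 change of -0.52 ± 0.06 and Polr1b of -0.46 ± 0.05 (adjusted p = 2.38e-05 and 5.95e-06 in limma). With LPS in both lines, 30 of the 58 biogenesis factors were higher in shDCLK1 cells and 2 lower as deposited, beside 34.3% and 14.3% of all genes. After scaling 14 were higher and 8 lower, beside 23.3% and 26.2% of all genes, so the number higher was near the share of all genes. Of the 76 ribosomal protein genes 0 were higher and 53 lower after scaling.

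**Figure D5:**
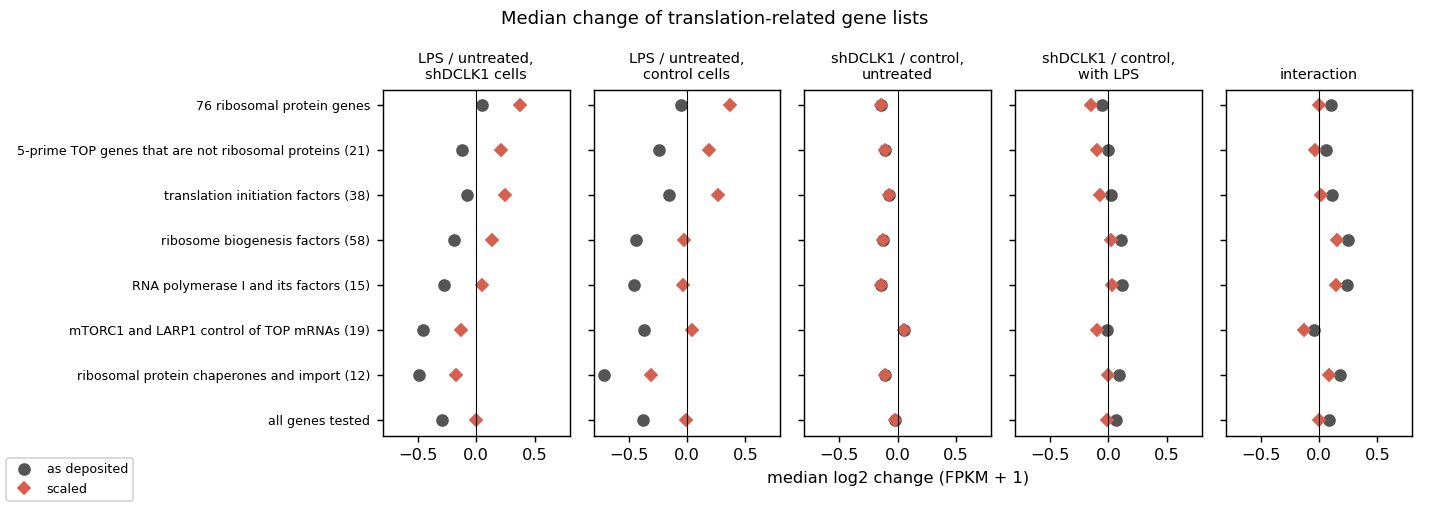
Median log2 change (FPKM plus 1) of the 76 ribosomal protein genes, of 6 translation-related gene lists (number of genes tested in brackets) and of all genes tested, in the 5 comparisons, as deposited (grey circles) and after median-of-ratios scaling (red diamonds). With LPS the ribosomal protein genes have the highest median of these lists after scaling, 0.38 in shDCLK1 cells and 0.36 in control cells. Some lists share genes, and the list of TOP genes includes Rack1.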

How the data were processed

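Poly(A) RNA was sequenced paired-end on a NovaSeq instrument, per the labels' protocols. The authors deposited FPKM per gene with 2 decimals in 1 table; StringTie 1.3.0, HISAT2 2.0, Bowtie 0.12.2 and the builds mm9 and mm8 are listed, without roles, in the submitters' processing notes. The annotation, the use of strand and the handling of reads from near-identical copies are not given in the sources used here. An unnamed column with 18 entries was not used, and 27 date-like symbols were replaced by those of their gene IDs in RefSeq. FPKM values divide by a library total, so a gain by a few abundant genes lowers all others. All 12 columns were fitted in limma 3.58.1 (R 4.3.3) on log2(FPKM + 1) with a mean per group and an intensity trend, over 11052 genes with at least 1 FPKM in 3 libraries or more, for 5 comparisons. P-values were adjusted by Benjamini-Hochberg over all genes tested and called under 0.05; log2 changes of low genes are understated by the pseudocount of 1. The same fit was run after median-of-ratios scaling, and on values minus the mean of the 76 genes per library. The fit was checked on simulated data with planted changes. Named genes are the 4 most above and 4 most below the family per comparison, the 3 highest and 3 lowest, a list of fixed members, and the 2 largest called changes of each pathway list; some genes that this rule names are not reported here. The members and lists were chosen with earlier results of these data known. Alternatives were other scalings, a pseudocount of 0.1, no filter or one at 5 FPKM, fits of only the groups compared, a replicate block, and leaving out each library. Promoters came from RefSeq (GRCm38.p6) and transcript GC content from GENCODE M21. Precision is limited by 3 libraries per group.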

Additional observations from a re-analysis of the deposited data

Results flagged for a closer look

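By the interaction term in limma (adjusted p under 0.05) the response to LPS differed between shDCLK1 and control cells for 18 of 76 ribosomal protein genes (23.7%) with a higher change in shDCLK1 cells as deposited, beside 32.6% of all genes. That count was 1 after median-of-ratios scaling and 8 to 30 on leaving out a library. Relative to the family it differed for 11 genes, 6 positive and 5 negative, beside 18.2% and 20.5% of all genes. The positive ones were Rps21 (0.16), Rpl22 (0.16), Rpl15 (0.13), Rpl13a (0.13), Rplp1 (0.10) and Rpl4 (0.10). The negative ones were Rpl36 (-0.34), Rpl31 (-0.18), Rpl10 (-0.18), Rps6 (-0.14) and Rpl3 (-0.10). Of these, the calls on Rpl22, Rpl13a, Rplp1 and Rpl3 were each lost in more than 1 fit with a library left out, and also without a filter on low values. With 3 libraries per group no single library was tested as standing apart.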

How the results depend on the processing

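The scaling decided the counts with LPS. After median-of-ratios scaling 75 members rose and 0 fell in shDCLK1 cells and 72 rose and 0 fell in control cells; between lines with LPS 53 were lower and 0 higher, and the interaction was positive for 1 and negative for 2. Quantile normalization gave 7 higher and 57 lower with LPS in shDCLK1 cells, 6 higher and 48 lower in control cells, 20 lower in untreated shDCLK1 cells, 2 higher between lines with LPS, and 10 positive and 6 negative interactions. With equal sums 22 fell in shDCLK1 cells and 9 rose in control cells. Shares of all genes were computed only for values as deposited, after median-of-ratios scaling and relative to the family. Without a filter on low values 4 were lower between lines with LPS and 5 stood apart from the family, and the interaction was positive for 6, negative for 0 and apart from the family for 6; the cause was not tested. Leaving out the 10 genes gave shares of 17.4%, 18.2%, 17.2% and 18.9%. Leaving out 1 library at a time gave 6 to 11 members apart from the family between untreated lines. Between lines with LPS it gave 4 to 14 lower, 0 to 1 higher and 4 to 11 apart from the family. For the interaction it gave 8 to 30 positive, 0 to 1 negative and 6 to 13 apart from the family. Over all these fits, and those with a pseudocount of 0.1, a filter at 5 FPKM or only the groups compared, the number higher in untreated shDCLK1 cells stayed at 0.

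Log2 changes of named genes turned round after median-of-ratios scaling. With LPS in shDCLK1 cells these included Rps2 (0.0086), Rpl3 (0.11), Rps15 (0.13), Rpl22l1 (0.18), Rps27l (0.19), Rsl24d1 (0.23) and Rack1 (0.32). With LPS in control cells these included Rpl22 (0.046), Rpl10a (0.080), Rpl41 (0.10), Rpl7l1 (0.31), Rsl24d1 (0.073) and Rps3a1 (0.38). Between lines with LPS these included Rpl14 (-0.060), Rpl7 (-0.051) and Rpl22 (-0.021). After quantile normalization those that turned round included Rpl23 (-0.018) with LPS in shDCLK1 cells, Rpl24 (-0.0036) with LPS in control cells, and Rps6 (0.042), Rpl10 (0.085) and Rpl31 (-0.01) between untreated lines. Leaving out 1 library at a time, the change between untreated lines ranged from -0.031 to 0.062 for Rpl31 and reached 0.035 for Rpl36 without control replicate 3, that of Rpl30 relative to the family ranged from -0.24 to 0.032, that of Rpl14 between lines with LPS from -0.020 to 0.065, and the interaction of Rps29 from -0.15 to 0.018. None of these passed the test before and after except Rpl3, Rps15, Rpl22l1, Rps27l and Rsl24d1 in shDCLK1 cells and Rpl7l1 and Rsl24d1 in control cells.

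Libraries with the same replicate number did not deviate together (correlations of -0.11 to 0.06 over 18 pairs, and 2 of 12 libraries closest to their own number), so the numbers do not pair them. With a replicate block 47 members were lower and 0 higher between untreated lines, 8 lower between lines with LPS, and 15 interactions were positive. Precision is limited by 3 libraries per group, and depth per library is known here only relative to the other libraries.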
